A study of Mus musculus with 11 samples.

Results

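A set of 6 genes for secreted or shed products is described here across 11 RNA-seq libraries of mouse embryonic stem (ES) cells. They are Inhba, Ereg, Hbegf, Il1rl1, Mmp3 and Serpinb2, 6 of the 24016 genes in the deposited table. Inhba lies on chromosome 13, Ereg on 5, Hbegf on 18, Mmp3 on 9, and Il1rl1 and Serpinb2 on 1. They were chosen by their RPKM values, which were high in the libraries with the DNA methyltransferase isoform Dnmt3b1, and Col1a1, a collagen gene of fibroblasts, was named with them for comparison. High Dnmt3b1 values are therefore how the genes were picked and are given as a description, with no test. Tests on the 6 genes were made only between libraries without Dnmt3b1. No stress treatment is named in the labels, so the usual description of these genes as stress-induced is background.

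Most lines lacked the de novo methyltransferases or had 1 isoform put back. TKO cells lack Dnmt1, Dnmt3a and Dnmt3b, and DKO cells lack Dnmt3a and Dnmt3b but keep Dnmt1. Dnmt3b1 is the full-length active isoform of Dnmt3b, and Dnmt3a1 and Dnmt3a2 are the long and short isoforms of Dnmt3a. The lines were TKO+Dnmt3b1, TKO+Dnmt3a1 (2 libraries), TKO+Dnmt3a2 (2 libraries), DKO+Dnmt3b1, DKO+Dnmt3a1, DKO+Dnmt3a2, the parent lines TKO and DKO, and the J1 line as wild type (WT), with 1 library each except where stated. All 11 libraries were of strain 129S4/SvJae. All cells were grown with serum and LIF on irradiated mouse embryonic fibroblasts, a feeder layer whose RNA can be in the library. The labels give neither the number of clones behind a line nor whether the 2 libraries of a line were separate cultures, so p-values measure only the spread between these libraries.

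Activin A, the dimer of the Inhba product, signals through activin receptors to Smad2 and Smad3. Epiregulin (Ereg) and heparin-binding EGF-like growth factor (Hbegf) are made as membrane precursors, cut free by proteases such as Adam17, and bind EGF receptors. Il1rl1 is the receptor of interleukin-33, and a short transcript of the same gene makes a soluble decoy that fibroblasts release. Mmp3 (stromelysin-1) cuts extracellular matrix, and Serpinb2 (PAI-2) inhibits the urokinase and tissue plasminogen activators and is found both inside and outside cells. In fibroblasts and macrophages most of these genes respond to growth factors, cytokines and stress kinases, and AP-1 factors of the Fos and Jun families are known regulators of Mmp3 and Serpinb2.

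The promoters of Mmp3 and Serpinb2 hold the letters TGANTCA (N is any base), a loose form of the AP-1 site. They are shown beside the promoter of Il1rl1, whose levels followed those of Serpinb2 most closely among the 6 genes. Each run is 300 bases of RefSeq sequence on build GRCm38.p6, plus strand, from 250 bases before a RefSeq start to 50 after it. Capitals mark TGANTCA and TATAAA, the TATA box letters. The middle base of TGANTCA was G in Mmp3 and A in Serpinb2. The positions are chr9:7445572-7445871 (Mmp3), chr1:107511173-107511472 (Serpinb2) and chr1:40439379-40439678 (Il1rl1).

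Mmp3: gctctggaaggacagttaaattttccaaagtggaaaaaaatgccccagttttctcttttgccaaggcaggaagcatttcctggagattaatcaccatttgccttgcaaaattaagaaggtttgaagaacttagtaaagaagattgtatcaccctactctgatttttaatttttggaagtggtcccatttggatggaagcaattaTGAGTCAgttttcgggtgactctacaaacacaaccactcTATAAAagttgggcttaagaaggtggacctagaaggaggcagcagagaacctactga
Serpinb2: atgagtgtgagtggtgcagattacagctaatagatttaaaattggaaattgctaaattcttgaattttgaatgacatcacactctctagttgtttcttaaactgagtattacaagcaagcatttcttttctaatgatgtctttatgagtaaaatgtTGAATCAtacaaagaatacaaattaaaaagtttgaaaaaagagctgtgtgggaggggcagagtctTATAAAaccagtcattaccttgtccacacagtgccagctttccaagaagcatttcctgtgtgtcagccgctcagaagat
Il1rl1: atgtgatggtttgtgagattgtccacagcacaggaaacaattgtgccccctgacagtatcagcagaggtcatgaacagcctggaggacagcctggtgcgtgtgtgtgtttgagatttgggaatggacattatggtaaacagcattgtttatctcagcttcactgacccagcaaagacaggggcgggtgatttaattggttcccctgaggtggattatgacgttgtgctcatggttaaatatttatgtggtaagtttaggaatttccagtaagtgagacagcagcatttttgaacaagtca

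In Mmp3 the AP-1 letters TGAGTCA began 46 bases before the start, and TATAAA began 7 bases before it. In Serpinb2 TGAATCA began 94 bases and TATAAA 29 bases before the start shown; a second RefSeq start of Serpinb2 has the same letters 181 and 116 bases before it. Neither Il1rl1 window, the one shown nor that of a start farther upstream, held TGANTCA or TATAAA. The Inhba window, chr13:16011601-16011900, held TATAAA 91 bases before its start and no TGANTCA, and no window of these 4 genes held the cAMP response element TGACGTCA. TGANTCA was found in 7.81% of all 32851 RefSeq promoters of this length, TGACGTCA in 1.79% (both strands searched) and TATAAA in 8.32% (forward strand). CpG dinucleotides, where these enzymes put methyl groups, numbered 1 in Mmp3, 1 and 4 in the 2 Serpinb2 windows, 1 and 3 in the Il1rl1 windows and 7 in Inhba, against a median of 7 over all promoters. Windows with at most 1 CpG made up 14.1% of all promoters. The listed transcript of Mmp3 begins at the start shown. That of Serpinb2 begins 74 bases after the start shown and 13 bases before the second start, which is the nearer one. That of Il1rl1 begins 147 bases after the start shown, and that of Inhba 2624 bases after the start of its window. For Ereg and Hbegf no promoter is shown.

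The deposited values are RPKM (reads per kilobase of transcript per 1 M mapped reads), made by the authors, with 1 transcript for each gene, so levels can be set against each other per length. The Il1rl1 transcript listed is the short one, of 2661 nt and a 337-residue protein; RefSeq also has a longer one of 5302 nt and 567 residues, and how reads common to both were counted is not given in the sources used here. The depth, estimated from the spacing of the low RPKM values, was 21.76 to 32.78 M reads a library. At that depth the values with the fewest reads, all in DKO+Dnmt3a2, rest on about 7 reads for Mmp3, 8 for Serpinb2 and 10 for Ereg. Dnmt3b itself was at 100 RPKM in TKO+Dnmt3b1 and 29.6 RPKM in DKO+Dnmt3b1, against 13.3 to 44.4 RPKM in the other add-back libraries, 45.3 RPKM in TKO, 5.68 RPKM in DKO and 25.0 RPKM in WT. Its total transcript was thus above that of the parent line in both Dnmt3b1 libraries, but 3 libraries without Dnmt3b1 were above DKO+Dnmt3b1.

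Both Dnmt3b1 libraries also had the highest summed levels of fibroblast and macrophage markers. Summed over 30 fibroblast markers, RPKM were 2750 to 3675 in the Dnmt3b1 libraries, with 326 to 1393 in the other 9. Summed over 18 macrophage markers, RPKM were 308 to 338 with Dnmt3b1 and 12.9 to 119 in the other 9. Col1a1 had 235 RPKM in TKO+Dnmt3b1 and 175 RPKM in DKO+Dnmt3b1, and 10.9 (DKO+Dnmt3a2) to 83.1 RPKM (DKO) elsewhere. The macrophage lysozyme Lyz2 had 193 and 180 RPKM with Dnmt3b1, and 0.066 (DKO+Dnmt3a2) to 63.3 RPKM (DKO) elsewhere. The 8 ES cell markers summed to 1839 to 2403 RPKM with Dnmt3b1, below the 2645 to 3772 RPKM of the other 9, so every library carried ES cell transcripts. Mast cells, which carry the long Il1rl1 form, left almost no trace: Cpa3 and Fcer1a were listed at 0 in all 11 libraries, and Hdc alone of 8 mast cell markers reached 1 RPKM. Keratinocyte markers did not pass 1.15 RPKM and endothelial markers 3.51 RPKM. The part of feeder or macrophage RNA in the results on the 6 genes was not tested. In bulk RNA fewer cells of a type and less RNA per cell cannot be told apart.

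Inhba, the activin subunit, had the highest level of the 3 ligand genes with Dnmt3b1. It had 136 RPKM in TKO+Dnmt3b1 and 93.8 RPKM in DKO+Dnmt3b1, against 6.89 and 6.49 RPKM in TKO+Dnmt3a1, 22.3 and 7.33 RPKM in TKO+Dnmt3a2, 10.03 RPKM in DKO+Dnmt3a1, 1.68 RPKM in DKO+Dnmt3a2, 7.10 RPKM in TKO, 8.94 RPKM in DKO and 3.37 RPKM in WT. The lower Dnmt3b1 value was 4.21 times the highest of the other 9 libraries. That step was the only one of the 10 between neighbouring libraries in the order of levels that was wider than the 3.04-fold gap between the 2 TKO+Dnmt3a2 libraries. Below it the order ran from TKO+Dnmt3a2 replicate 1 down to WT and DKO+Dnmt3a2, with no neighbours apart by more than that gap. The genes were chosen for high Dnmt3b1 values, which favours a wide step just below those libraries. The width of that step, here and for the other genes, is therefore a description and not a test.

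Ereg, the scarcest of the 6, had the widest step between Dnmt3b1 and the rest. It had 9.34 RPKM in TKO+Dnmt3b1 and 6.99 RPKM in DKO+Dnmt3b1, against 0.353 and 0.196 RPKM in TKO+Dnmt3a1, 0.797 and 0.274 RPKM in TKO+Dnmt3a2, 0.460 RPKM in DKO+Dnmt3a1, 0.084 RPKM in DKO+Dnmt3a2, 0.349 RPKM in TKO, 1.12 RPKM in DKO and 0.081 RPKM in WT. Only the Dnmt3b1 libraries and DKO reached 1 RPKM. The lower Dnmt3b1 value was 6.24 times that of DKO, the next library, while the replicates of TKO+Dnmt3a2 differed 2.91-fold.

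Hbegf, the other EGF receptor ligand, varied least. It had 27.4 RPKM in TKO+Dnmt3b1 and 17.9 RPKM in DKO+Dnmt3b1, against 9.19 and 9.71 RPKM in TKO+Dnmt3a1, 11.4 and 9.41 RPKM in TKO+Dnmt3a2, 8.83 RPKM in DKO+Dnmt3a1, 6.53 RPKM in DKO+Dnmt3a2, 7.33 RPKM in TKO, 10.2 RPKM in DKO and 9.56 RPKM in WT. The other 9 libraries spanned 1.74-fold. Both steps above them, DKO+Dnmt3b1 over TKO+Dnmt3a2 replicate 1 (1.57-fold) and TKO+Dnmt3b1 over DKO+Dnmt3b1 (1.53-fold), were wider than the 1.21-fold replicate gap, and no other step was. Outside Dnmt3b1, Hbegf was the second most abundant of the 6 by its median (9.41 RPKM, after 12.6 RPKM for Il1rl1), and with Dnmt3b1 it was the second scarcest.

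Il1rl1, the interleukin-33 receptor gene, was the most abundant of the 6 with Dnmt3b1. Hbegf was above it in DKO+Dnmt3a2, DKO and WT, and Mmp3 and Inhba in DKO. It had 209 RPKM in TKO+Dnmt3b1 and 158 RPKM in DKO+Dnmt3b1, against 14.2 and 12.1 RPKM in TKO+Dnmt3a1, 39.9 and 12.6 RPKM in TKO+Dnmt3a2, 17.7 RPKM in DKO+Dnmt3a1, 2.41 RPKM in DKO+Dnmt3a2, 16.0 RPKM in TKO, 3.22 RPKM in DKO and 5.90 RPKM in WT. Of the 6 libraries between WT and Dnmt3b1 in this order 5 were of the TKO family, and DKO and DKO+Dnmt3a2 stood below WT. The step to the Dnmt3b1 libraries, 3.95-fold, was the only one wider than the 3.18-fold replicate gap.

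Mmp3, the matrix protease, spread most outside Dnmt3b1. It had 52.1 RPKM in TKO+Dnmt3b1 and 44.9 RPKM in DKO+Dnmt3b1, against 5.25 and 3.33 RPKM in TKO+Dnmt3a1, 13.3 and 4.92 RPKM in TKO+Dnmt3a2, 5.67 RPKM in DKO+Dnmt3a1, 0.135 RPKM in DKO+Dnmt3a2, 7.24 RPKM in TKO, 23.1 RPKM in DKO and 1.61 RPKM in WT. The 9 libraries without Dnmt3b1 covered a 171-fold range, with DKO at the top and DKO+Dnmt3a2 at the bottom. The lower Dnmt3b1 value was 1.94 times that of DKO, less than the 2.71-fold gap between the TKO+Dnmt3a2 replicates. In the order of Mmp3 levels only the step from WT to DKO+Dnmt3a2, 11.9-fold, was wider than that gap.

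Serpinb2, the plasminogen activator inhibitor, had 48.8 RPKM in TKO+Dnmt3b1 and 35.8 RPKM in DKO+Dnmt3b1, against 3.15 and 2.75 RPKM in TKO+Dnmt3a1, 7.04 and 4.04 RPKM in TKO+Dnmt3a2, 2.402 RPKM in DKO+Dnmt3a1, 0.141 RPKM in DKO+Dnmt3a2, 4.01 RPKM in TKO, 0.444 RPKM in DKO and 1.69 RPKM in WT. All 5 TKO family libraries without Dnmt3b1 were above all 3 such DKO family libraries. The same held for 14% of all genes tested, and 20.5% did not overlap in either direction. In the order of its levels 3 steps were wider than the 1.74-fold replicate gap: DKO+Dnmt3b1 over TKO+Dnmt3a2 replicate 1 (5.09-fold), WT over DKO (3.80-fold) and DKO over DKO+Dnmt3a2 (3.15-fold).

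**Figure D1:**
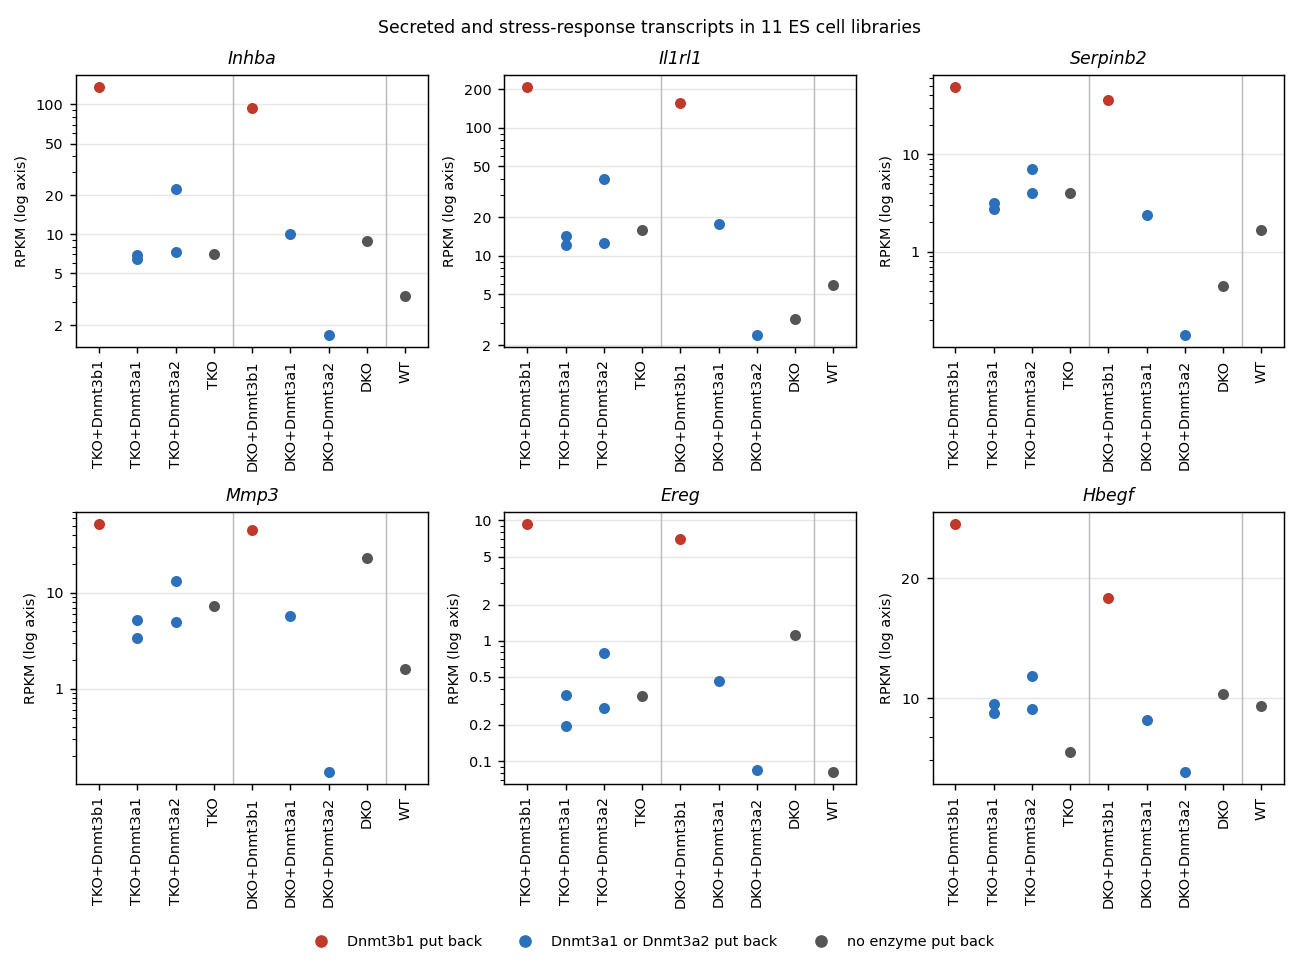
RPKM (log axis, own scale in each panel) of the 6 genes in 11 libraries, 1 point a library, with vertical lines between the TKO family, the DKO family and WT. The 2 Dnmt3b1 libraries lie above the other 9 in every panel, by 1.57-fold (Hbegf) to 6.24-fold (Ereg) from the lower Dnmt3b1 value to the next library, and DKO+Dnmt3a2 is the lowest library except for Ereg, where WT is.

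Set against the mean of the Dnmt3a lines in the same family, the Dnmt3b1 value was higher by 23.1-fold in TKO and 25.7-fold in DKO for Ereg, the highest folds in TKO. For Inhba the folds were 12.7 in TKO and 16.0 in DKO, for Il1rl1 10.6 and 15.7, for Serpinb2 11.5 and 28.2, and for Mmp3 7.76 and 15.5. Hbegf, at 2.76 and 2.32, had a lower fold than Col1a1, at 5.73 and 7.34. Against the parent line the 2 families differed more. DKO+Dnmt3b1 over DKO was 80.7-fold for Serpinb2 and 49.0-fold for Il1rl1, but 1.94-fold for Mmp3 and 1.74-fold for Hbegf. TKO+Dnmt3b1 over TKO was 12.2-fold for Serpinb2, 13.0-fold for Il1rl1, 7.19-fold for Mmp3 and 3.74-fold for Hbegf. These folds rest on 1 Dnmt3b1 library in each family and have no replicate check.

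The ratio to Col1a1 of the same library separated the genes into 3 patterns. Inhba, Il1rl1, Serpinb2 and Ereg had a higher ratio in both Dnmt3b1 libraries than in any of the other 9. Ereg stood out most, with ratios of 0.0397 (TKO+Dnmt3b1) and 0.0399 (DKO+Dnmt3b1), while those elsewhere were 0.00251 (WT) to 0.0135 (DKO). Serpinb2 had 0.207 and 0.205 with Dnmt3b1, and 0.00534 (DKO) to 0.117 elsewhere. Il1rl1 came close to the collagen level with Dnmt3b1, at 0.888 and 0.900, and had 0.0387 (DKO) to 0.664 (TKO+Dnmt3a2 replicate 1) elsewhere. Inhba had 0.580 and 0.536 with Dnmt3b1, and 0.104 (WT) to 0.370 elsewhere.

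Mmp3 did not separate this way, with ratios of 0.221 and 0.256 in the Dnmt3b1 libraries, 0.278 in DKO and 0.0124 in DKO+Dnmt3a2. Hbegf went the other way: its ratios of 0.116 and 0.102 with Dnmt3b1 were below all of the other 9, which ran from 0.123 (DKO) to 0.598 (DKO+Dnmt3a2). Against the mean log2 level of the fibroblast markers in place of Col1a1, the same 4 genes lay highest with Dnmt3b1. The margin was narrow for Ereg, at -2.33 and -2.27 with Dnmt3b1 and up to -2.39 (DKO+Dnmt3a2) elsewhere. Mmp3, at 0.14 and 0.27 with Dnmt3b1, was again below its value of 0.72 in DKO, and Hbegf was again lowest with Dnmt3b1. Col1a1 belongs to the choice of the genes, so these ratios have no test.

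**Figure D2:**
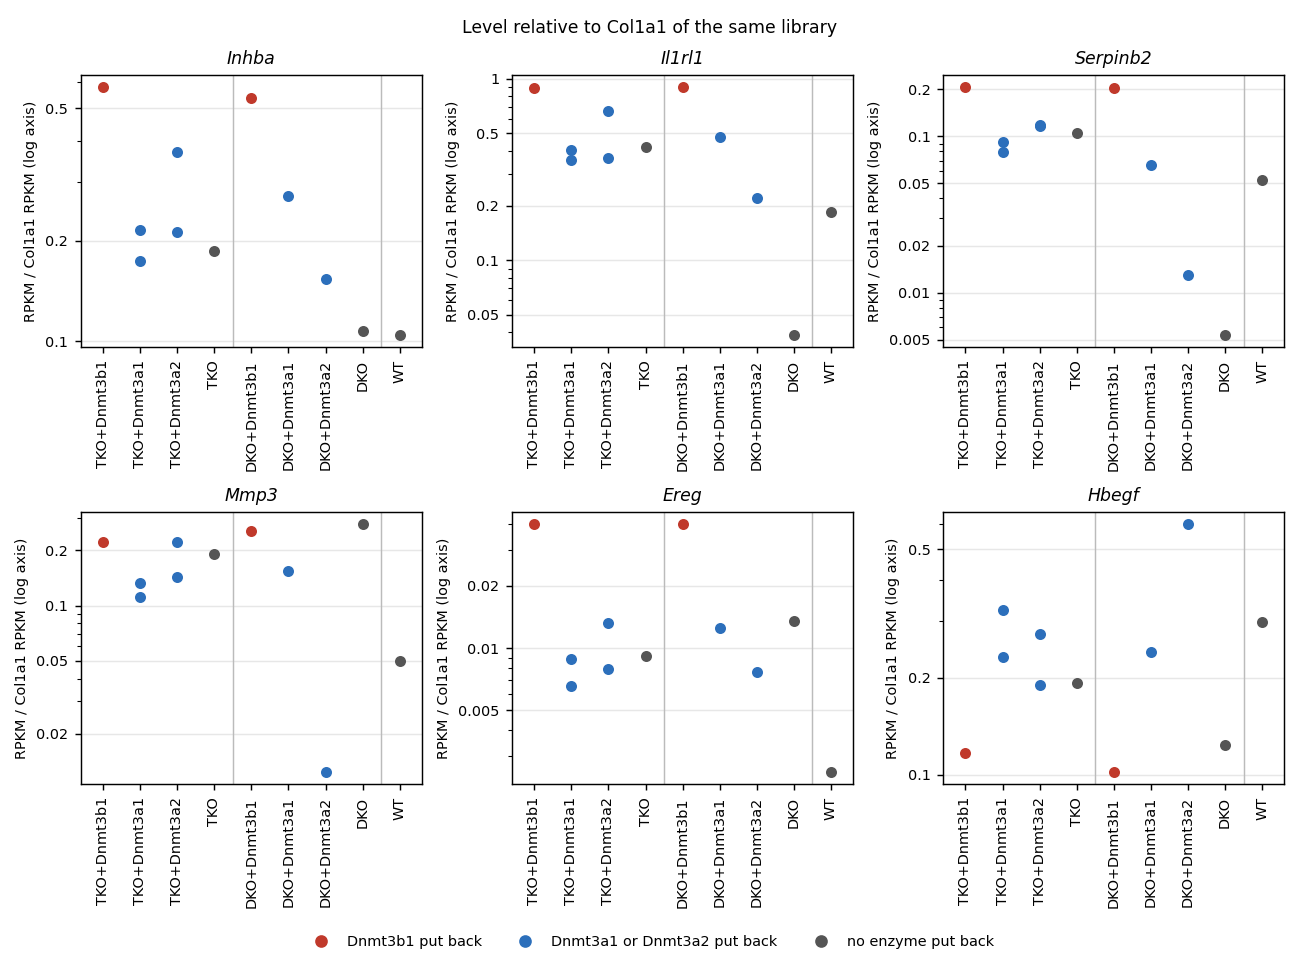
RPKM of each gene divided by the Col1a1 RPKM of the same library (log axis, own scale in each panel), 1 point a library. With Dnmt3b1 the ratio is highest for Inhba, Il1rl1, Serpinb2 and Ereg, within the range of the other libraries for Mmp3 (0.221 and 0.256 against 0.278 in DKO) and lowest for Hbegf (0.116 and 0.102).

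The 9 libraries without Dnmt3b1, whose differences among themselves did not choose the genes, grouped the 6 differently. The 9 points include 2 lines with 2 libraries each and differ in fibroblast marker levels, so correlations of log2(RPKM + 0.5) over them are descriptions. Il1rl1 and Serpinb2 went together (r = 0.95), as did Mmp3 and Ereg (r = 0.91). Mmp3 followed Col1a1 (r = 0.96), and so did Ereg (r = 0.85), Inhba (r = 0.81) and Hbegf (r = 0.77). Serpinb2 (r = 0.40) and Il1rl1 (r = 0.39) followed Col1a1 little, and Serpinb2 and Ereg were nearly unrelated (r = 0.14). The DKO library was the highest of the 9 for Mmp3, Ereg and Col1a1 and the second lowest for Il1rl1 and Serpinb2.

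The genes most like each member over all 11 libraries, by Pearson r of log2(RPKM + 0.5), were mostly low outside Dnmt3b1. For Inhba they were Fgf7, a fibroblast growth factor made by mesenchymal cells (r = 0.998 over 11 libraries, 0.992 over the 9 without Dnmt3b1), Nr2f2 (0.995 and 0.985) and Fbln5 (0.994 and 0.972). For Il1rl1 they were Sh3kbp1 (0.996 and 0.988), Zfp703 (0.994 and 0.984) and Antxr2 (0.993 and 0.981). For Ereg they were the Wnt antagonist Dkk2 (0.996 and 0.963), the complement receptor gene C3ar1 (0.995 and 0.953) and the chemokine gene Ccl11 (0.991 and 0.963).

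Serpinb2 was nearest to Hoxc9 (0.990 and 0.965), Plin2 (0.990 and 0.977) and Pcdh7 (0.989 and 0.970). Mmp3 was nearest to Asah2 (0.982 and 0.971) and to 2 matrix genes, Fbln2 (0.981 and 0.965) and Col1a2 (0.979 and 0.960). Hbegf had the loosest companions, Dagla (0.978 and 0.838), Atp6ap1 (0.974 and 0.794) and Emp3 (0.970 and 0.885). Nearest to the mean of the 6 were Masp1, Nr2f2, Rgma, Pxdc1 and Ier5 (0.994 to 0.996).

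Putting back Dnmt3a1 or Dnmt3a2 had no detected effect on the 6 genes. In the comparison of the Dnmt3a isoforms with the parent lines (6 libraries against 2, limma), 0 of 6 were called at an adjusted p under 0.05 and 0 had an unadjusted p under 0.05, while 0.0211% of the 14229 genes tested were called and 2586 of them had an unadjusted p under 0.05. Differences are on the log2(RPKM + 0.5) scale, with standard errors. The biggest was that of Mmp3, -1.78 ± 0.99 (adjusted p = 0.379), which came to -3.58 without TKO (adjusted p = 0.149), -0.28 without DKO (0.959) and -0.71 without DKO+Dnmt3a2 (0.538). Il1rl1 stood at 0.49 ± 0.71 (adjusted p = 0.746), Ereg at -0.48 ± 0.38 (0.529), Inhba at -0.25 ± 0.69 (0.879), Serpinb2 at 0.24 ± 0.56 (0.854) and Hbegf at 0.04 ± 0.22 (0.942). The errors, up to 0.99, leave room for changes not detectable with these libraries.

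In TKO family cells, which lack Dnmt1 too, Serpinb2 and Il1rl1 were higher than in DKO family cells, but neither passed the test. Of the 6 genes, 0 were called by limma (5 libraries against 3) and 2 (Il1rl1 and Serpinb2) had an unadjusted p under 0.05, while 12.6% of all genes tested were called and 4669 had an unadjusted p under 0.05. Serpinb2 had 2.75 to 7.04 RPKM in the TKO family and 0.141 to 2.402 RPKM in the DKO family, a difference of 1.86 ± 0.50 (adjusted p = 0.0506). It was the only 1 of the 6 whose families did not overlap; over all genes tested, 20.5% did not overlap, 14% with the TKO family higher and 6.54% with the DKO family higher. Its adjusted p came to 0.0181 without DKO+Dnmt3a1 and to 0.278 without DKO+Dnmt3a2, so the call depends on single libraries. Il1rl1 had 12.1 to 39.9 RPKM in the TKO family, against 2.41, 3.22 and 17.7 RPKM in the DKO family, a difference of 1.52 ± 0.63 (adjusted p = 0.142). It came to 2.63 without DKO+Dnmt3a1 (adjusted p = 0.0479) and to 0.69 without DKO+Dnmt3a2 (adjusted p = 0.624).

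The other 4 genes differed less between the families. Mmp3 stood at 0.79 ± 0.89 (adjusted p = 0.567), Inhba at 0.67 ± 0.62 (0.485), Hbegf at 0.14 ± 0.20 (0.660), Ereg at -0.09 ± 0.34 (0.879) and Col1a1 at 0.39 ± 0.50 (0.618). The fibroblast list had a median difference of 0.72 between the families, with 1 of 29 genes called, against a median of 0.11 over all genes tested. Its part in the Serpinb2 and Il1rl1 values was not tested.

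Against WT, loss of the enzymes came with higher Mmp3 in both parent lines, again without a call. With 1 library in each arm, the spread in these 2 comparisons is that of the 2 replicated lines. In TKO against WT, 0 of 6 genes were called by limma and 2 (Serpinb2 and Mmp3) had an unadjusted p under 0.05, with 0.344% of all genes called (0.26% higher and 0.0843% lower) and 2447 at an unadjusted p under 0.05. Mmp3 had 7.24 RPKM in TKO and 1.61 RPKM in WT (1.87 ± 0.66, adjusted p = 0.244). The mean log2 level of the fibroblast markers was 3.43 in TKO and 2.87 in WT, with 26 of 29 higher in TKO, and that of the macrophage markers 0.98 in TKO and 0.54 in WT. Lyz2 had 28.7 RPKM in TKO and 12.9 RPKM in WT, and the part of these cells was not tested. Il1rl1 stood at 1.37 ± 0.72 (0.382), Serpinb2 at 1.04 ± 0.42 (0.288), Inhba at 0.98 ± 0.68 (0.496), Ereg at 0.55 ± 0.46 (0.569) and Hbegf at -0.36 ± 0.25 (0.490).

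In DKO against WT, limma called 0% of all genes (1181 had an unadjusted p under 0.05) and 0 of the 6, of which 3 (Serpinb2, Mmp3 and Ereg) had an unadjusted p under 0.05. Mmp3 had 23.1 RPKM in DKO and 1.61 RPKM in WT (3.48 ± 0.66, adjusted p = 0.303), and Ereg had 1.12 RPKM in DKO and 0.081 RPKM in WT (1.48 ± 0.46, adjusted p = 0.474). Col1a1 also stood higher in DKO, at 83.1 RPKM, than in WT, at 32.2 RPKM (1.35 ± 0.42, adjusted p = 0.467). The mean log2 level of the fibroblast markers was 3.84 in DKO and 2.87 in WT, and that of the macrophage markers 1.63 in DKO and 0.54 in WT; their part in the Mmp3 and Ereg values was not tested. Serpinb2 stood lower in DKO, at 0.444 RPKM, than in WT, at 1.69 RPKM (-1.21 ± 0.42, adjusted p = 0.521). Il1rl1 stood at -0.78 ± 0.72 (0.871), Inhba at 1.29 ± 0.68 (0.721) and Hbegf at 0.09 ± 0.25 (0.975).

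Of 108 genes in 8 pathway lists around the 6 that reached 1 RPKM in a library without Dnmt3b1, 56 rose with Dnmt3b1 and 2 fell. In the comparison of the 2 Dnmt3b1 libraries with the 6 Dnmt3a libraries, limma called 13.5% of all genes tested higher and 7.17% lower (20.7% in all), and the median of all genes was 0.01. The lists leave out the 6 genes themselves. A gene that reached 1 RPKM only with Dnmt3b1 entered the test through the libraries in which it is high, as 388 of the 14229 genes did. In the lists such genes are left out of the counts and medians and are given without a test. The shares and the median over all genes tested include them. Of the EGF family ligands, receptors and shedding factors, 14 of 19 were tested, 6 rose and 0 fell, with a median of 0.40. Areg, the neighbour and close relative of Ereg, had 5.33 RPKM in TKO+Dnmt3b1 and 3.44 RPKM in DKO+Dnmt3b1, and 0.029 to 1.32 RPKM (DKO) elsewhere (2.79 ± 0.28, adjusted p = 0.0015). The feedback inhibitor Errfi1 (1.89 ± 0.24, adjusted p = 0.0029), the receptor Egfr (1.798 ± 0.33, 0.0083) and the ligand Nrg1 (1.57 ± 0.46, 0.0439) rose too.

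Of the activin and inhibin genes, 13 of 16 were tested, 5 rose and 1 fell, with a median of 0.33. The activin antagonist Fst rose most (1.99 ± 0.31, adjusted p = 0.0055), with the co-receptor Tgfbr3 (1.10 ± 0.31, 0.0381) and the subunits Inhbb (1.07 ± 0.22, 0.0125) and Inha (0.89 ± 0.24, 0.0336). The type I activin receptor Acvr1b fell (-0.65 ± 0.19, 0.0416). Of the interleukin-1 and interleukin-33 genes, 12 of 16 were at 1 RPKM in another library, 7 rose and 0 fell, with a median of 1.20. The interleukin-1 receptor antagonist Il1rn (3.01 ± 0.29, adjusted p = 0.0015), the shared receptor subunit Il1rap (2.24 ± 0.20, 0.0013), and the ligand Il1a (1.83 ± 0.36, 0.0103) were among them. Il33, the ligand of Il1rl1, reached 1 RPKM only with Dnmt3b1 and had 2.91 RPKM in TKO+Dnmt3b1 and 2.29 RPKM in DKO+Dnmt3b1, and 0.252 to 0.662 RPKM elsewhere.

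Of the matrix metalloproteinases and their inhibitors, 17 of 23 were tested, 10 rose and 1 fell, with a median of 1.09. The rises were led by Mmp12, the macrophage elastase (3.87 ± 0.37, adjusted p = 0.0015), Mmp10, the closest relative of Mmp3 (3.502 ± 0.40, 0.0020), the collagenase Mmp13 (3.19 ± 0.48, 0.0050) and the inhibitor Timp3 (2.78 ± 0.20, 0.0012). Of the plasminogen activation genes, 8 of 10 were tested, 7 rose and 0 fell, with a median of 1.53. They included urokinase Plau (2.61 ± 0.45, adjusted p = 0.0074), its receptor Plaur (1.89 ± 0.21, 0.0020) and Anxa2 (1.58 ± 0.30, 0.0095). Of the clade B serpins, the family of Serpinb2, 4 of 13 were at 1 RPKM in another library, 3 rose and 0 fell, with a median of 1.22. They included Serpinb9b (3.42 ± 0.48, adjusted p = 0.0041) and the granzyme B inhibitor Serpinb9 (1.29 ± 0.28, 0.0154), while Serpinb8 and Serpinb6b reached 1 RPKM only with Dnmt3b1.

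Of the inflammatory and senescence-associated secreted factors, 19 of 26 were at 1 RPKM in another library, 9 rose and 0 fell, with a median of 1.63. Il11, a cytokine of the interleukin-6 family, reached 1 RPKM only with Dnmt3b1 and had 11.9 RPKM in TKO+Dnmt3b1 and 8.46 RPKM in DKO+Dnmt3b1, and 0.178 to 0.658 RPKM elsewhere. Ptgs2, the inducible cyclooxygenase (3.35 ± 0.60, adjusted p = 0.0081), the chemokine Cxcl2 (2.66 ± 0.47, 0.0075) and Igfbp7 (2.53 ± 0.49, 0.0103) rose. In the same comparison 29 of 29 fibroblast markers tested rose (median 2.50), 11 of the 13 macrophage markers at 1 RPKM in another library rose (median 2.79), and 5 of 8 ES cell markers fell (median -0.66). The medians of the 7 lists were thus below those of both marker lists, and the part of these cells in the rises was not tested. Without TKO+Dnmt3b1 the calls over all genes came to 77 and without DKO+Dnmt3b1 to 179, against 2943 with both. With 1 Dnmt3b1 library left in each of these fits, only medians are given for the lists, in that order. They were 0.45 and 0.36 for EGF, 0.26 and 0.28 for activin, and 1.08 and 1.24 for metalloproteinase genes. Plasminogen genes had 1.501 and 1.521, and fibroblast markers 2.71 and 2.31. The interleukin, serpin and secreted factor lists are left out here, as they hold genes at 1 RPKM only with Dnmt3b1.

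**Figure D3:**
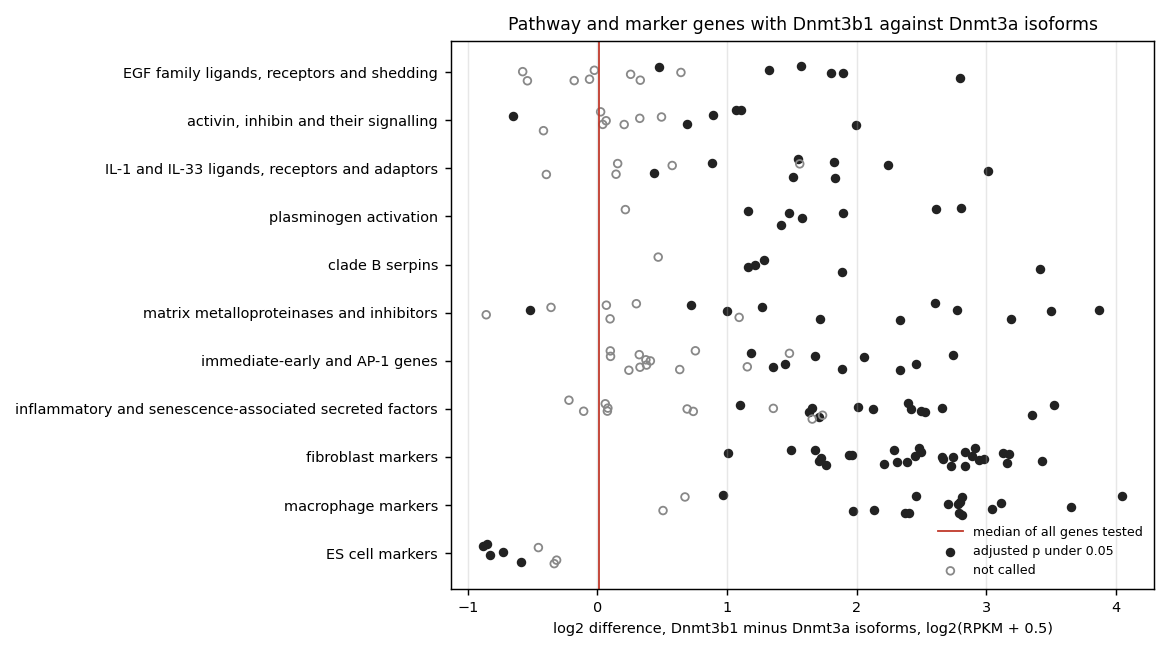
Log2 difference (Dnmt3b1 minus Dnmt3a isoforms, log2(RPKM + 0.5)) of each tested gene in 8 pathway lists and 3 marker lists, 1 point a gene, filled where the adjusted p was under 0.05. The red line is the median of all genes tested (0.01), and the fibroblast (median 2.50) and macrophage (2.79) markers lie farther right than the pathway lists, whose medians run from 0.33 to 1.63. Medians leave out the genes at 1 RPKM only with Dnmt3b1. These are plotted, and their fill is a description with no test.

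Of the 22 immediate-early and AP-1 genes, 21 were tested, 9 rose with Dnmt3b1 and 0 fell, with a median of 1.16. All 21 differences were above 0, and without TKO+Dnmt3b1 1 was called and without DKO+Dnmt3b1 2. Fosl1 (2.74 ± 0.52, adjusted p = 0.0096), Jun (2.45 ± 0.42, 0.0072), Fosl2 (2.33 ± 0.34, 0.0042) and Phlda1 (2.06 ± 0.33, 0.0058) rose most. Fosl1 had 38.7 RPKM in TKO+Dnmt3b1 and 25.5 RPKM in DKO+Dnmt3b1, against 13.9 RPKM in TKO+Dnmt3a2 replicate 1, 2.33 RPKM in DKO and 1.47 RPKM in WT. Fos (0.76 ± 0.53, adjusted p = 0.330) and Egr1 (1.16 ± 0.45, adjusted p = 0.102) were not called. These 2 and Atf3 were singled out after their values were seen. Fos had 4.54 RPKM in TKO+Dnmt3b1, 5.20 RPKM in DKO+Dnmt3b1 and 20.5 RPKM in DKO, the highest of the 11, with 1.72 to 3.99 RPKM elsewhere. Egr1 had 35.6 RPKM in TKO+Dnmt3b1, 48.8 RPKM in DKO+Dnmt3b1 and 106 RPKM in DKO, again the highest of the 11, with 10.5 to 22.3 RPKM elsewhere. DKO was also the library with the most Mmp3 and Ereg outside Dnmt3b1, and TKO+Dnmt3a2 replicate 1, with the most Fosl1 outside Dnmt3b1, had the most Inhba, Il1rl1, Serpinb2 and Hbegf there. These 2 libraries also had the highest fibroblast marker means outside Dnmt3b1, 3.84 in DKO and 3.90 in TKO+Dnmt3a2 replicate 1, and DKO had the highest macrophage marker mean, 1.63. Their part was not tested.

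**Figure D4:**
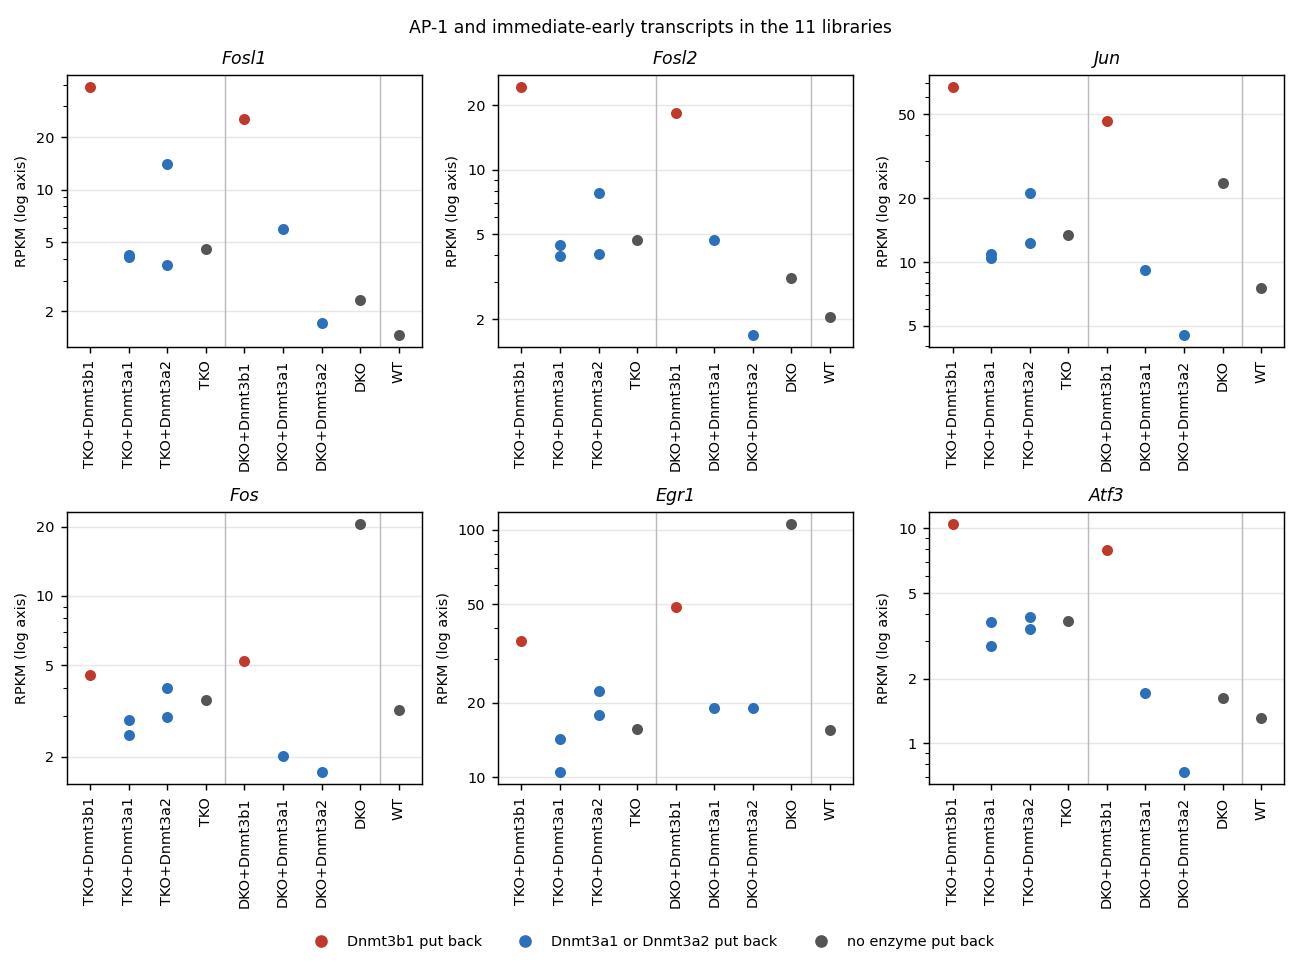
RPKM (log axis, own scale in each panel) of 6 immediate-early and AP-1 genes in the 11 libraries, 1 point a library. Fosl1, Fosl2, Jun and Atf3 are highest in the 2 Dnmt3b1 libraries, while Fos (20.5 RPKM) and Egr1 (106 RPKM) are highest in DKO.

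The comparisons without Dnmt3b1 gave few calls in these lists. Between the Dnmt3a isoforms and the parent lines, between TKO and WT, and between DKO and WT, 0 genes of the 8 pathway lists were called by limma. Of the 115 tested, 19, 27 and 22 had an unadjusted p under 0.05 there, in that order. Between the TKO and DKO families 10 of the 115 were called higher in the TKO family and 0 lower, against 9.19% of all genes called higher and 3.42% lower. In the activin, clade B serpin, metalloproteinase and secreted factor lists 0 were called. The 10 were 4 of 14 EGF family genes (Nrg2, Erbb3, Adam10 and Rhbdf2), 3 of 13 interleukin genes (Il1a, Il1b and Il1rn), 1 of 8 plasminogen activation genes (S100a10) and 2 of 21 immediate-early genes (Atf3 and Ier3). Of these, Il1b stood at 1.43 ± 0.28, Il1a at 1.23 ± 0.24, Atf3 at 1.18 ± 0.22 and Il1rn at 1.10 ± 0.25. The macrophage markers Csf1r, Cd14 and Fcgr3 rose in the same comparison (3 of 18), and their part in the interleukin values was not tested.

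The replicated lines show how far these genes move between libraries of 1 line. In TKO+Dnmt3a2 replicate 1 was higher than replicate 2 for all 6 genes, by 1.21-fold (Hbegf) to 3.18-fold (Il1rl1), and also for Col1a1, by 1.75-fold. Inhba averaged 14.8 ± 10.6 RPKM and Il1rl1 26.2 ± 19.4 RPKM there (SD, n = 2). In TKO+Dnmt3a1 the replicates were 1.06-fold (Inhba and Hbegf) to 1.801-fold (Ereg) apart, with Inhba at 6.69 ± 0.28 RPKM and Il1rl1 at 13.2 ± 1.46 RPKM (SD, n = 2). The mean fibroblast marker level (log2 scale) was 3.90 and 3.26 in the TKO+Dnmt3a2 libraries and 3.36 and 3.16 in those of TKO+Dnmt3a1.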

How the data were processed

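RNA of 11 ES cell libraries was measured as polyA RNA with a kit that keeps no strand (TruSeq v2, per the labels' protocols), so overlapping genes can share reads. Per the submitters' processing notes, bcl2fastq 1.8.4, STAR 2.4.0 and build mm9 were used; the counter and gene lengths are not given in the sources used here. The deposited values are RPKM, made by the authors. The unit is not counts, so the count test planned for count data was not used.

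Values were taken as log2(RPKM + 0.5). A gene was tested if any library had it at 1 RPKM or more, which left 14229 genes with all 6 described among them. They were fitted with limma 3.58.1 (eBayes with a trend, R 4.3.3), with Benjamini-Hochberg adjustment over all of them and calls at an adjusted p under 0.05. The pseudocount understates folds of low genes. Two-sided limma tests were fitted on the 10 libraries other than WT (Dnmt3b1 against Dnmt3a), on the 8 without WT and Dnmt3b1 (Dnmt3a against parents, TKO against DKO family), each with additive terms for family and for the enzyme put back, or on 9 group means over 11 libraries (against WT). These comparisons share libraries. The fit was tested on simulated data with 200 changed genes.

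The 6 genes, the lists and the tests were chosen with earlier results of these data known. Of each pathway list at most 4 called genes with the largest differences were named (1 of them is not reported here), with Acvr1b, the activin gene that fell, added after its values were seen, and the 3 genes most like each member by Pearson r. Read depth was estimated as the total at which most values of transcripts of up to 400 nt came to whole reads of up to 5, within 0.05. Promoter sequences came from a RefSeq table on GRCm38.p6, and mm9 coordinates were not used. Python 3.11.15 with pandas 2.3.3 and numpy 2.4.6 was used for descriptions.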

Additional observations from a re-analysis of the deposited data

Results flagged for a closer look

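In 4 of the 6 genes the difference from the parent line had opposite signs in TKO and DKO cells with a Dnmt3a isoform put back. Every TKO library of the line went one way and the DKO library the other. The share of all genes that meet this rule was not computed, so the count shows nothing particular to the 6. Some differences were small: Serpinb2 had 4.04 RPKM in TKO+Dnmt3a2 replicate 2 and 4.01 RPKM in TKO, and Inhba 7.33 and 7.10 RPKM. The DKO side is 1 library against 1. Values are log2(RPKM + 0.5) differences from the parent line, and the difference between families was tested with limma over all genes, of which 0 were called for Dnmt3a1 and 1, none of the 6, for Dnmt3a2. With Dnmt3a1, Il1rl1 stood at -0.28 in TKO cells and 2.29 in DKO cells (limma adjusted p = 0.514), and Serpinb2 at -0.39 in TKO cells and 1.62 in DKO cells (adjusted p = 0.48). Inhba stood at -0.081 in TKO cells and 0.16 in DKO cells (adjusted p = 0.932), and Hbegf at 0.34 in TKO cells and -0.20 in DKO cells (adjusted p = 0.589). With Dnmt3a2, Inhba stood at 0.81 in TKO cells and -2.12 in DKO cells (limma adjusted p = 0.409), Hbegf at 0.47 in TKO cells and -0.61 in DKO cells (adjusted p = 0.403), and Serpinb2 at 0.38 in TKO cells and -0.56 in DKO cells (adjusted p = 0.584). DKO+Dnmt3a2 was also the library with the lowest fibroblast marker mean (1.62, against 3.84 in DKO), and the part of this in the Dnmt3a2 values was not tested.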

How the results depend on the processing

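Of 444 recomputed values of the 6 genes, 419 stayed the same, 16 reversed, 6 came past the threshold and 3 moved. For the tested comparisons, staying the same means the same direction and side of the threshold. For the described Dnmt3b1 difference, which has no threshold, it means the same direction and a shift under the residual SD of the fit. A larger shift there counts as moved.

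Calls over all genes moved by more than 1.5 times as follows. Dnmt3a isoforms against parent lines (3 calls) gave 8 with no filter on low values, 0 with a mean of at least 1 RPKM, 0 with the replicate number as a block, 0 with each line counted once, and 0 to 188 leaving out 1 library. TKO against DKO family (1794) gave 986 with no filter, 479 with the replicate block, 286 with each line once, and 119 to 2388 leaving out 1 library. TKO against WT (49) gave 115 with a mean of at least 1 RPKM, 16 with quantile normalization, 12 with median ratio scaling, 307 with the block, 319 in the additive model and 0 leaving out either replicate of a line. DKO against WT (0) gave 71 with no filter, 60 with the block, 12 in the additive model and 0 leaving out a replicate. Dnmt3b1 against Dnmt3a (2943) gave 77 to 3338 leaving out 1 library, and, within that margin, 1992 with the block.

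With the replicate block Mmp3 passed against WT in TKO (1.87, adjusted p = 0.0390) and in DKO (3.48, adjusted p = 0.0159). The deviations of same-numbered replicates of TKO+Dnmt3a1 and TKO+Dnmt3a2 correlated at r = 0.09 over 14229 genes. With 2 pairs this cannot show whether a replicate number marks a shared batch, which the labels do not state. Serpinb2 between the families passed with a mean of at least 1 RPKM (adjusted p = 0.0480) and with median ratio scaling (0.0494).

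Uncalled differences changed sign in these cases. Dnmt3a against parents: Hbegf at -0.41 without TKO and -0.03 without TKO+Dnmt3a2 replicate 1, Inhba at 0.37 without DKO and 0.45 without DKO+Dnmt3a2, Serpinb2 at -0.0062 without DKO and -0.34 without DKO+Dnmt3a1, Ereg at 0.0495 without DKO and Il1rl1 at -0.20 without DKO+Dnmt3a1. TKO against DKO family: Ereg at 0.23 without TKO, 0.23 without DKO, 0.046 without DKO+Dnmt3a1 and 0.016 with the block, and, without DKO+Dnmt3a2, Inhba at -0.45, Mmp3 at -0.91 and Hbegf at -0.14. DKO against WT: Hbegf at -0.25 in the additive model. Leaving out 1 library, the ranges against parents were -0.98 to 0.45 (Inhba), -0.20 to 1.01 (Il1rl1), -0.34 to 0.71 (Serpinb2), -3.58 to -0.28 (Mmp3), -1.11 to 0.0495 (Ereg) and -0.41 to 0.41 (Hbegf), and between families -0.45 to 1.36 (Inhba), -0.91 to 1.69 (Mmp3), -0.58 to 0.23 (Ereg) and -0.14 to 0.36 (Hbegf). The described Dnmt3b1 difference of Ereg was 4.34 with a pseudocount of 0.1 and 2.76 with 1 (3.37 with 0.5), and that of Serpinb2 was 4.83 without TKO+Dnmt3b1 (4.07 with it).

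Scaling changed the split of calls. Dnmt3b1 against Dnmt3a had 1923 of 2943 calls higher, and 1691 of 3508 with quantile normalization. TKO against DKO family had 1307 of 1794 higher, 780 of 1564 with quantile normalization and 948 of 1887 with median ratio scaling. Quantile normalization brought the median of all genes to -0.01, against 0.11 as reported (family) and 0.13 (TKO against WT). The causes were not tested. Depth limits Mmp3, Serpinb2 and Ereg in DKO+Dnmt3a2 most.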
